A study of Drosophila melanogaster with 18 samples.

Results

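CBP, the product of the Drosophila gene nejire (nej), is a histone acetyltransferase, and CBP-KD embryos at cycle 14 were compared with wild-type (WT) embryos of the same cycle across all genes. The comparison uses 6 of the 18 total RNA-seq libraries of the series, with 3 biological replicates per genotype. The table gives 16680 genes, of which 8467 had enough counts to be tested, and these genes are described here by family and function. WT embryos came from a control line of the Transgenic RNAi Project, and CBP-KD embryos from mothers carrying a short hairpin against nej, made by the authors, together with the driver matα4-GAL-VP16, which is active in the female germline in late oogenesis. Embryos of the other knockdown genotype, E(z)-KD, came from mothers with a hairpin against E(z), the H3K27 methyltransferase of PRC2, under the same driver. They were used here only to show where CBP-KD differs from another maternal knockdown. All embryos were laid within 1 h at 25 °C, aged, and picked by hand under oil. WT and CBP-KD embryos from before cycle 9 gave an earlier stage, used where it is named. The embryos compared here were at cycle 14, the interphase in which the syncytial embryo forms cells.

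The knockdown acts in the mother, so it removes maternal nej RNA, and the zygotic genome of the embryos is not the target of a mutation. The library names join a second stock number to the hairpin line in the knockdowns and not in WT. The hairpin transgene, the driver and the stock background therefore cannot be told apart from the loss of CBP, nor can small differences in embryo age within cycle 14. The study states that only a part of the embryos of either knockdown developed this far, so the libraries describe those that did. Levels are given as CPM, a gene's counts divided by the library total (scaled with TMM factors) and multiplied by 1e6. They are shares of each library's RNA, so a change in the total RNA of an embryo is not seen. In whole embryos, fewer cells of a type and less RNA per cell cannot be told apart either.

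The early Drosophila embryo runs on RNA and protein loaded by the mother, and around cycle 14 the zygotic genome is activated in a major wave while much of the maternal RNA is degraded. Pioneer factors such as Zelda and GAGA factor open enhancers and promoters, and CBP is recruited to many of them, where it acetylates histone H3 at lysine 27 and other residues. The first zygotic genes include the segmentation and dorsoventral patterning genes, which divide the embryo into segments and germ layers.

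Library totals at cycle 14 were 6243486, 13773744 and 10523097 estimated counts in WT and 13804821, 18262569 and 16402475 in CBP-KD. WT replicate 1 was the shallowest, and a detection floor of 3 counts corresponds to 0.474 CPM in it. The targeted gene was checked first. The nej level was 1495, 2216 and 2169 CPM in the WT libraries and 657, 528 and 557 CPM in the CBP-KD libraries. Every CBP-KD library was below every WT library, and 29.6% of the WT level was left. The log2 fold change was -1.76 ± 0.14 (SE, edgeR's quasi-likelihood test, adjusted p = 1.44e-08). An exact permutation test over these 6 libraries, two-sided, gave p = 0.1, its minimum for groups of 3. In E(z)-KD the nej level was 1680.0 ± 232 CPM (SD, n = 3), within the WT range. Among the 1287 genes that were lower in CBP-KD, replicate 1 was the highest CBP-KD library for 944 (73.3%), so this library lay nearest to WT.

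A gene was called higher or lower when its adjusted p was under 0.05 and its level differed by at least 1 on the log2 scale, that is 2-fold. By this rule 1016 genes were higher in CBP-KD (12.0% of those tested) and 1287 were lower (15.2%), or 2303 in all (27.2%). The libraries of the called genes did not overlap between the groups for 2255 of the 2303. The decreases were the larger changes. The median log2 fold change was -2.12 among the lower genes and 1.61 among the higher genes, and 442 genes were lower by at least 3 on the log2 scale against 151 that were higher by as much. Over all genes tested the median was 0.01. With DESeq2's size factors that median moved to -0.16, and 789 genes were higher and 1477 lower, so directions of lists whose median lies that close to 0 depend on the scaling. Without the fold threshold, 5685 genes passed the adjusted p threshold.

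**Figure D1:**
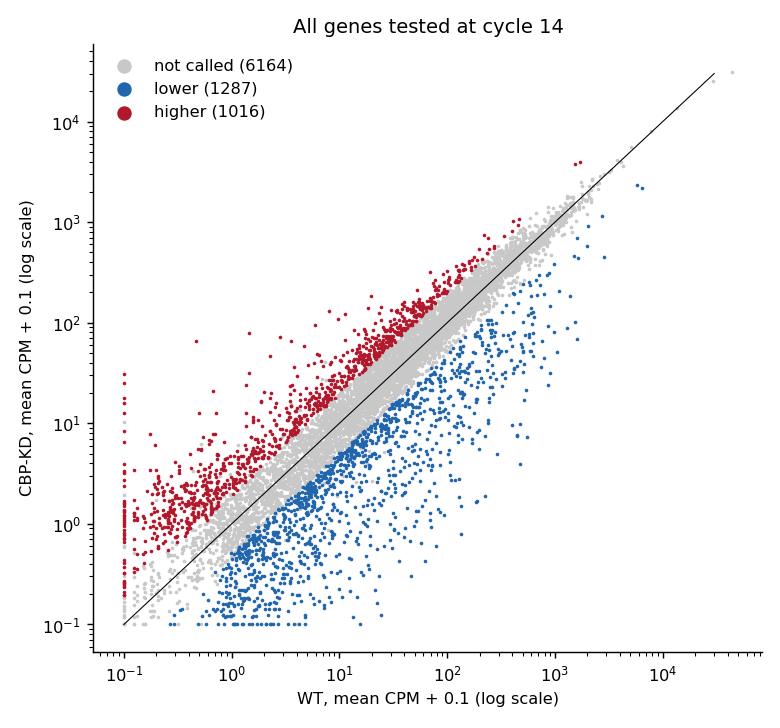
Mean level of each of the 8467 genes tested in WT (x axis) and CBP-KD (y axis) at cycle 14, in CPM plus 0.1 on log scales, with the line of equality. Points are single genes, blue where lower in CBP-KD (1287), red where higher (1016) and grey where not called, and the blue cloud below the line is deeper than the red cloud above it.

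The 52 genes that mark germ layers and regions of the cycle 14 embryo were all tested. Of these, 41 were lower in CBP-KD, 0 were higher and 11 were not called, with a median log2 fold change of -2.58 against 0.01 over all genes. The lower genes came from every layer: 7 of 9 mesoderm markers, 7 of 8 markers of the anterior-posterior ectoderm, 5 of 6 of the dorsal ectoderm, 5 of 6 of the neural ectoderm, 4 of 6 of the ventral ectoderm, 4 of 6 of the anterior endoderm and 8 of 8 of the posterior endoderm. Of the 3 yolk nucleus markers only beat-IIIc was lower. The markers that were not called were Mes2, zfh1, hb, peb, vnd, numb, fra, jigr1, cnc, sisA and Corp. WT embryos thus held the markers of all germ layers.

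The segmentation cascade reads maternal gradients into gap domains, pair-rule stripes and segment borders. Among the 7 gap genes, which encode transcription factors of broad domains, 6 were lower (median log2 fold change -2.11). Krüppel (Kr), the gap gene of the central domain, had 391, 402 and 444 CPM in WT and 51.7, 27.8 and 24.7 CPM in CBP-KD. The groups were far apart, with a log2 fold change of -3.59 ± 0.24 (SE, adjusted p = 2.22e-09). The terminal gap genes huckebein (hkb) and tailless (tll), which act at the poles downstream of Torso, changed by -2.52 and -2.11, knirps-like (knrl) by -2.12, knirps (kni) by -1.56 and giant (gt) by -1.27. The exception was hunchback (hb), the gap gene with a maternal RNA, at 547, 666 and 631 CPM in WT and 828, 731 and 838 CPM in CBP-KD (log2 fold change 0.38 ± 0.06). It was already at 329 CPM in WT before cycle 9, whereas Kr was at 0.0613 CPM.

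All 9 pair-rule genes, which are expressed in stripes of alternate segments, were lower (median -3.44, adjusted p of at most 2.57e-05). The odd-paired gene (opa), a late pair-rule factor that sets the timing of the segment network, fell most. Its level was 531, 532 and 575 CPM in WT and 15.3, 4.89 and 1.33 CPM in CBP-KD, with a log2 fold change of -6.32 ± 0.40 (SE). The even-skipped gene (eve), a repressor expressed in 7 stripes, had 82.3, 88.4 and 85.6 CPM in WT and 16.8, 11.8 and 9.56 CPM in CBP-KD. Its log2 fold change was -2.75 ± 0.29 (SE, adjusted p = 3.54e-07), and the groups were far apart. The other pair-rule genes changed by -4.37 (odd), -3.90 (prd), -3.45 (hry, or hairy), -3.44 (ftz), -3.31 (slp2), -3.06 (run) and -2.19 (slp1). Pair-rule genes that start early in cycle 14 and those that follow were therefore both lower, with slp1 the least affected of the 9.

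Segment polarity genes, which hold the borders within each segment through Wingless and Hedgehog signals, showed 8 lower among 9 tested (median -2.83). The ligand wingless (wg) had 48.5, 39.0 and 34.0 CPM in WT and 2.90, 1.82 and 1.15 CPM in CBP-KD, and the log2 fold change was -4.38 ± 0.36 (SE). The T-box factor midline (mid), the Hedgehog receptor patched (ptc) and the Wnt inhibitor naked cuticle (nkd) changed by -4.28, -4.15 and -3.61. The homeobox gene engrailed (en) changed by -2.75 on the log2 scale, while its neighbour and paralogue invected (inv) was not called (0.05). For inv the libraries held 2.05, 2.28 and 0.767 CPM in WT and 1.91, 1.25 and 2.12 CPM in CBP-KD, and 0.774 ± 0.207 CPM in E(z)-KD. Of 13 head patterning genes 10 were lower (median -2.12), including Optix (-4.25), an eye and head field factor, ems (-2.41) and toy (-2.30), a Pax6 gene. The head genes btd, cnc and ey were not called.

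The homeotic (Hox) genes, which give segments their identity, and the neighbouring zen genes had the lowest median of any list fixed for the comparison (-5.38). All 8 members tested were lower, and lab and pb had too few counts to be tested. Ultrabithorax (Ubx), which specifies the posterior thorax, had 12.5, 9.03 and 9.59 CPM in WT and 0.212, 0.0520 and 0 CPM in CBP-KD. The groups did not overlap, and the log2 fold change was -6.85 ± 0.83 (SE, adjusted p = 5.16e-06). Deformed (Dfd), a head Hox gene, had 20.7, 19.0 and 15.7 CPM in WT and 0.636, 0.104 and 0.121 CPM in CBP-KD. Scr, Antp and abd-A changed by -5.93, -5.65 and -5.11. Abd-B, the most posterior gene of the cluster, changed less, by -3.73, with 5.53, 5.58 and 3.74 CPM in WT and 0.636, 0.364 and 0.121 CPM in CBP-KD. The noncoding RNA lncRNA:iab4, transcribed from the bithorax complex between abd-A and Abd-B (chr3R:16850004-16856497, dm6), had 63.7, 59.6 and 63.9 CPM in WT and 0.777, 0.208 and 0 CPM in CBP-KD. It was among the 12 largest decreases of called genes over 5 CPM in WT (-7.63 ± 0.57, SE), and iab-8 overlaps it on the opposite strand.

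**Figure D2:**
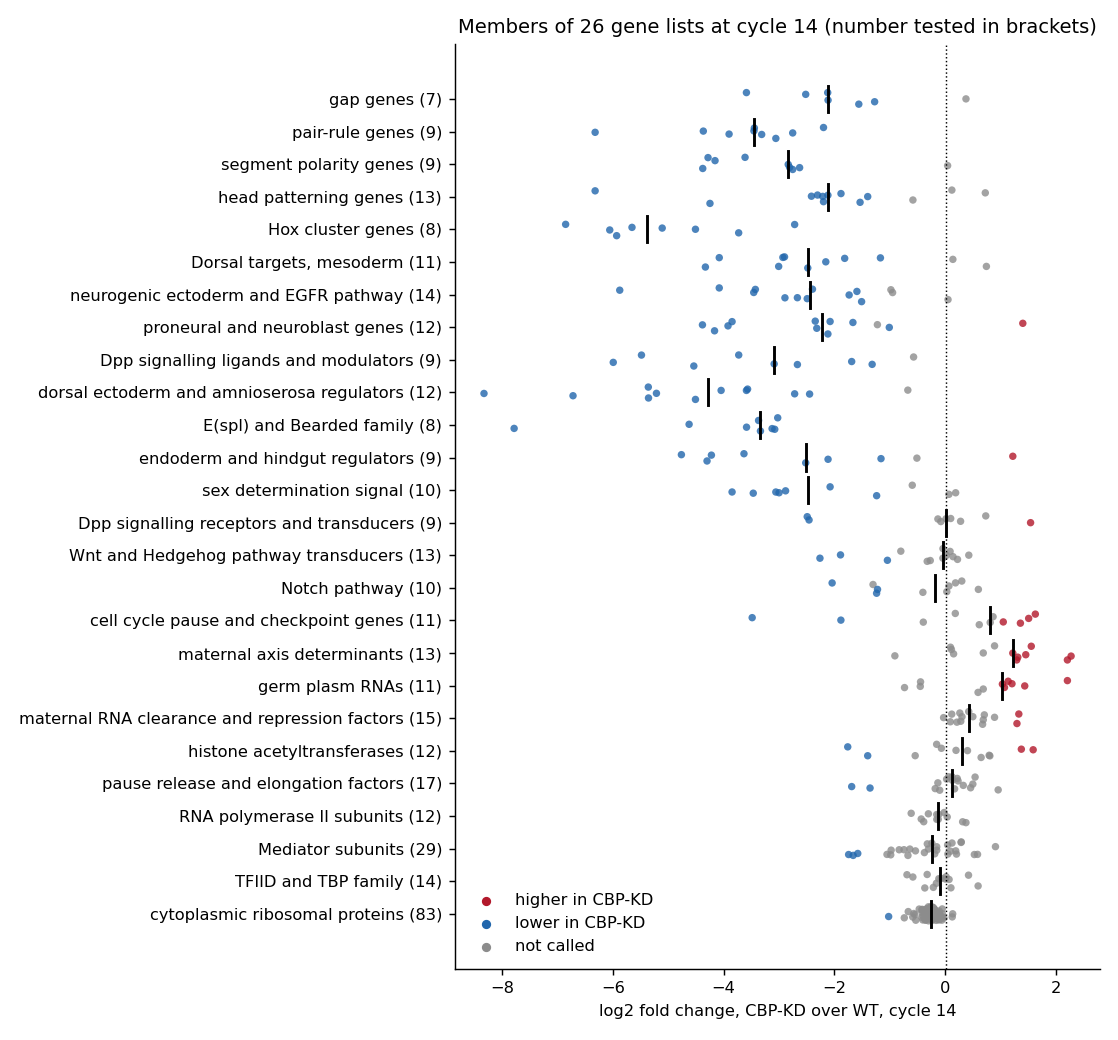
Log2 fold change of CBP-KD over WT at cycle 14 (x axis) for the tested members of 26 gene lists (y axis, number tested in brackets). Each point is a gene, blue where lower, red where higher and grey where not called, and the black bar is the list's median, which lies below -2 for the patterning lists, near 0 for signalling transducers and the transcription machinery, and above 1 for the maternal axis and germ plasm lists.

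The dorsoventral axis is set by the Toll receptor, which lets the transcription factor Dorsal enter ventral nuclei. Of 12 genes of this pathway 3 were higher and 3 lower. Dorsal itself (dl) had 3.79, 3.09 and 4.32 CPM in WT and 10.4, 13 and 8.83 CPM in CBP-KD, and was called higher (1.56 ± 0.17, SE). Before cycle 9 its RNA was at 134 CPM in WT, above every cycle 14 library of both groups. The Toll ligand spz (2.28) and the protease gd (1.44) were also higher, the Dorsal pathway inhibitor wntD (-2.92) and the eggshell factors ndl (-2.17) and pip (-2.01) were lower, and the receptor Tl (0.11), the inhibitor cact (-0.08), the adaptor tub (0.42) and the kinase pll (0.79) were not called. Of the 11 mesodermal Dorsal targets tested, 9 were nevertheless lower (median -2.48). The bHLH factor twist (twi), which specifies the mesoderm, had 294, 269 and 274 CPM in WT and 83.4, 49.8 and 55.5 CPM in CBP-KD. Its log2 fold change was -2.15 ± 0.18 (SE), and snail (sna), the mesodermal repressor, changed by -1.81. The FGF receptor heartless (htl) and its adaptor stumps, used in mesoderm spreading, changed by -4.33 and -2.93, the guidance cue NetA by -4.08 and ltl by -3.0. Mef2 and zfh1 were not called.

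In the neurogenic ectoderm and EGFR list, 11 of 14 tested genes were lower (median -2.44). The FGF ligands thisbe (ths) and pyramus (pyr), both recognised by Heartless, were the lowest. The ths level was 55.9, 42.3 and 48.5 CPM in WT and 1.63, 0.676 and 0.242 CPM in CBP-KD, and the log2 fold change was -5.87 ± 0.63 (SE). For pyr it was 34.5, 25.1 and 29.7 CPM in WT and 3.04, 1.14 and 1.15 CPM in CBP-KD (-4.08 ± 0.49, SE). Both FGF ligands and their receptor were thus lower together. The EGFR inhibitor argos (aos) changed by -3.46, the protease rhomboid (rho), which releases the EGFR ligand, by -3.43, the receptor Egfr by -2.89 and the ligands vn and spi by -2.39 and -1.73. The genes vnd and sim fell short of the fold threshold (-0.98 and -0.95), and S was near 0 (0.05).

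For the Dpp (BMP) pathway, which patterns the dorsal side, the ligands and extracellular modulators were set beside the receptors and transducers. Of 9 ligands and modulators 8 were lower and 0 were higher (median -3.09), while of 9 receptors and transducers 2 were lower, 1 was higher and 6 were not called (median 0.02, or -0.16 with DESeq2's scaling). The ligand dpp had 86.0, 99.2 and 102 CPM in WT and 15.1, 8.42 and 10.5 CPM in CBP-KD (-3.09 ± 0.22, SE, adjusted p = 2.13e-08). The second ligand scw, expressed throughout the blastoderm, changed by -3.73. The protease tolloid (tld), which frees Dpp from its carrier Sog, had 221, 238 and 265 CPM in WT and 15.0, 7.85 and 8.95 CPM in CBP-KD, and the log2 fold change was -4.54 ± 0.20 (SE). Its relative tok and the modulator cv-2 changed by -5.48 and -5.99. In contrast, the type I receptor thickveins (tkv) had 215, 199.7 and 215 CPM in WT and 193, 189.7 and 214 CPM in CBP-KD, with overlapping groups (-0.08 ± 0.06, SE). The transcription factors Mad (-0.13) and Med (0.28) and the receptors put (0.02), wit (0.10) and sax (0.74) were not called either. The lower members of this list were brk (-2.49) and shn (-2.46), both nuclear regulators of Dpp targets, and the higher one was the inhibitory Smad Dad (1.54).

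Of 12 regulators and markers of the dorsal ectoderm and amnioserosa, 11 were lower (median -4.28). The T-box genes Doc1, Doc2 and Doc3, which stand side by side on 3L and are needed for the amnioserosa, were the most affected with Ance, a peptidase of the dorsal midline. Doc2 (chr3L:9012686-9019246, dm6) had 24.7, 20.6 and 21.1 CPM in WT and 0.141, 0.0520 and 0 CPM in CBP-KD. Only a few counts were left, so the change is given as a ratio with its counting interval, 359-fold lower (95% interval 122 to 1747, counting error only). Doc1, Doc3 and Ance changed by -6.72, -5.36 and -5.36 on the log2 scale, and the GATA factor pannier (pnr) by -4.04. The homeobox gene zen had 118, 144 and 138 CPM in WT and 25.7, 16.5 and 19.4 CPM in CBP-KD (-2.72 ± 0.17, SE). The gene hindsight (peb) was the one member not called (-0.67).

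**Figure D3:**
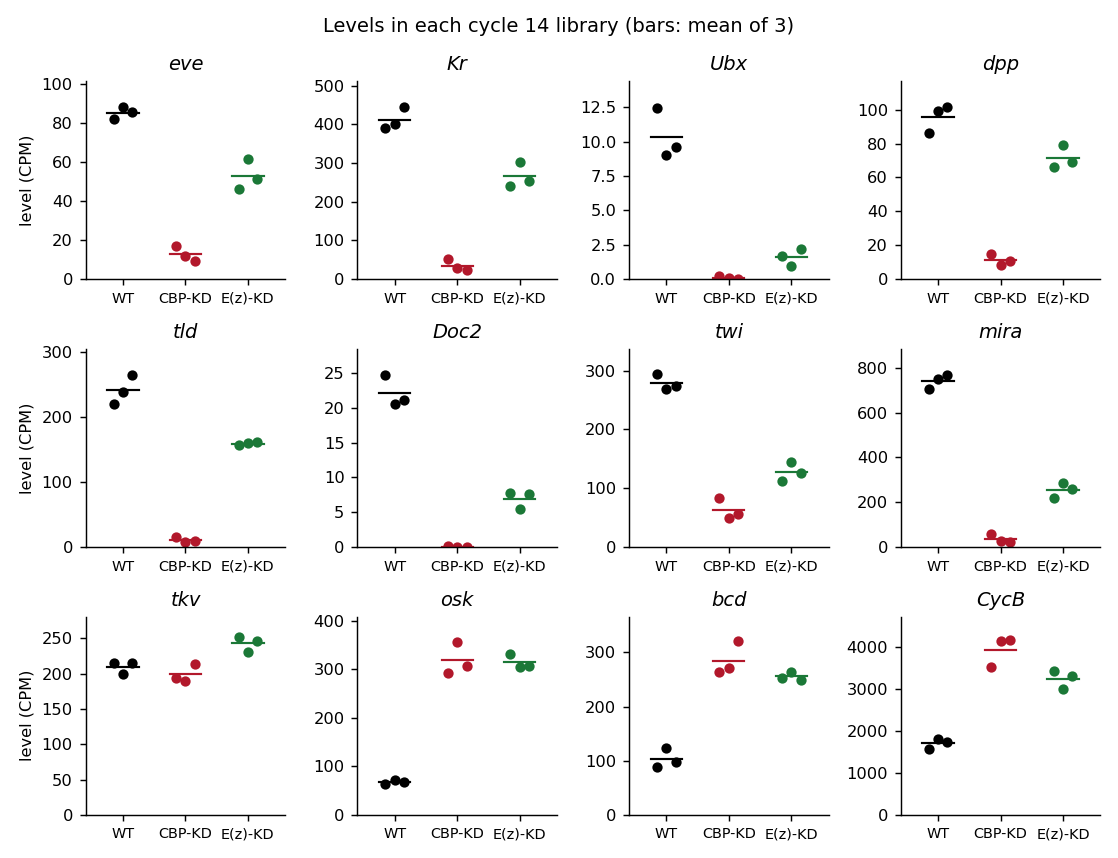
Level in CPM (y axis) of 12 genes in each cycle 14 library of WT (black), CBP-KD (red) and E(z)-KD (green), with bars at the mean of 3 libraries. The 8 zygotic patterning genes of the upper rows are low in CBP-KD and lie between CBP-KD and WT in E(z)-KD, tkv is at about the same level in all 3 genotypes, and osk, bcd and CycB are higher in both knockdowns than in WT.

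Proneural genes give ectodermal cells the capacity to become neuroblasts. In this list 10 of 12 tested genes were lower and 1 was higher (median -2.22). Miranda (mira), the carrier that sorts fate determinants in dividing neuroblasts, had 704, 750.3 and 767 CPM in WT and 58.2, 27.9 and 21.9 CPM in CBP-KD, and the log2 fold change was -4.38 ± 0.28 (SE). Its cargo prospero (pros) changed by -4.16, the Sox factor SoxN by -3.92 and the neuroblast repressor deadpan (dpn) by -3.85. The higher gene was atonal (ato, 1.40), which had 0.474, 0.735 and 0.671 CPM in WT and 1.70, 1.66 and 1.82 CPM in CBP-KD. All 8 tested members of the E(spl) and Bearded family, small Notch-responsive genes, were lower (median -3.35), and 7 others had too few counts to be tested. In the Notch pathway itself 3 of 10 genes were lower and 0 were higher. The E3 ligase neur changed by -2.04, the ligand Delta by -1.24 and mib1 by -1.22, while Su(H) (-0.40) and gro (0.07) were not called.

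In the JAK/STAT pathway the ligands upd1 and upd2 and the feedback inhibitor Socs36E changed by -2.88, -3.58 and -3.11, while the receptor dome (0.17), the kinase hop (0.34) and the transcription factor Stat92E (0.15) were not called. Of 13 Wnt and Hedgehog transducers 3 were lower, namely the receptor fz2 (-2.26), the TCF factor pan (-1.89) and smo (-1.04), and the rest were not called. Of the 4 Toll-family receptors that guide convergent extension, 18w, Tollo and Toll-6 were lower (-3.61, -3.51 and -1.64) and Toll-7 was not called.

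Endoderm and hindgut regulators were lower in 7 of 9 cases (median -2.52). The T-box gene brachyenteron (byn) had 98.8, 109.8 and 112 CPM in WT and 6.29, 3.90 and 1.82 CPM in CBP-KD (-4.76 ± 0.29, SE). The GATA factor serpent (srp), also the first haemocyte gene, changed by -4.30, drm by -4.22 and the FoxA factor fork head (fkh) by -3.63. The posterior homeobox gene caudal (cad), whose RNA is also maternal, was the one member called higher, at 99.1, 144 and 139 CPM in WT and 249.9, 331 and 318 CPM in CBP-KD (1.22 ± 0.12, SE).

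The sex determination signal counts X chromosomes through early zygotic activators of Sex-lethal (Sxl). Here 7 of 10 genes were lower (median -2.48). Sxl had 555, 556 and 604 CPM in WT and 94.1, 64.9 and 56.5 CPM in CBP-KD, and the log2 fold change was -3.0 ± 0.14 (SE). Its X-linked activators run, upd1 and sc were lower, and so were the repressors dpn and emc (-3.46). The activator sisA was not called (-0.59), with 80.3, 61.3 and 61.4 CPM in WT and 54.6, 39.1 and 40.4 CPM in CBP-KD. In the dosage compensation complex, which raises X-linked transcription in males, the RNAs lncRNA:roX1 (-1.14) and lncRNA:roX2 (-1.73) and msl-2 (-1.31) were lower. The acetyltransferase of the complex, mof, was higher, at 156, 164 and 159 CPM in WT and 375, 435 and 435 CPM in CBP-KD (1.38 ± 0.06, SE). The difference in mof was already there before cycle 9, at 113 CPM in WT and 338 CPM in CBP-KD.

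Cellularization depends on a handful of short zygotic genes. Of 7, 3 were lower. The gene slam, needed for the furrow membrane, was one of the most abundant RNAs in WT, at 4853, 5899.6 and 6433 CPM, and had 2774, 1945 and 2218 CPM in CBP-KD (-1.31 ± 0.11, SE). Sry-alpha and dunk changed by -1.18 and -2.44. For nullo, which stabilises the furrow, the libraries held 55.9, 70.2 and 51.9 CPM in WT and 79.6, 62.7 and 83.1 CPM in CBP-KD, and it was not called (0.33), nor was bnk (-0.66). Of the 10 ventral furrow genes 6 were lower, including Traf4 (-4.62) and T48 (-1.47), which concentrates contractile myosin at the apex, and stg was higher. The apicobasal determinants were mostly not called, with sdt (-3.57) and crb (-1.5) lower and Fas3 higher (2.71).

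At cycle 14 the embryo pauses its nuclear divisions by destroying the Cdc25 phosphatases string (stg) and twine (twe). Both RNAs were higher in CBP-KD. The stg level was 135, 139 and 112 CPM in WT and 284, 369 and 336 CPM in CBP-KD (1.36 ± 0.08, SE), and that of twe was 105, 135 and 122 CPM in WT and 228, 241 and 284 CPM in CBP-KD (1.05 ± 0.08, SE). The checkpoint kinase grp (Chk1) and the Cdk1 inhibitor Myt1 were higher too, by 1.63 and 1.51. The zygotic inhibitors of mitosis went the other way. Z600 (frühstart), which blocks cyclin binding, had 183, 142 and 154 CPM in WT and 15.5, 12.1 and 15.2 CPM in CBP-KD (-3.48 ± 0.22, SE), and tribbles (trbl), which promotes the loss of String, changed by -1.88. Among the mitotic cyclins and the Pan Gu kinase, CycB (1.21) and png (1.05) were higher and 7 of 9 genes were not called. Among apoptosis genes, the zygotic inducers rpr (-4.02) and skl (-2.38) and the inhibitor Diap1 (-1.29) were lower.

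The RNAs that set up the axes and the germ plasm were listed apart from other maternal RNAs. Of 13 maternal axis determinants 7 were higher and 0 were lower, with a median log2 fold change of 1.22. Oskar (osk), which assembles the germ plasm, had 64.5, 72.6 and 68.5 CPM in WT and 291, 357 and 306 CPM in CBP-KD. Every CBP-KD library was above every WT library, and the log2 fold change was 2.21 ± 0.08 (SE, adjusted p = 2.29e-12). Bicoid (bcd), the anterior morphogen, had 88.5, 124 and 96.8 CPM in WT and 263, 271 and 321 CPM in CBP-KD (1.46 ± 0.09, SE). The eggshell and axis gene grk, the bcd anchoring factor swa and the Toll ligand spz were also higher, by 1.31, 1.29 and 2.28. The genes exu (-0.91), stau (0.10), Tl (0.11), tor (0.15), nanos (0.69) and pum (0.89) were not called.

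Of 11 germ plasm RNAs 6 were higher and 0 were lower (median 1.04), against 3 higher with DESeq2. The 6 were, besides osk, Prx2 (1.44), CycB (1.21), gcl (1.14), ovo (1.07) and pgc (1.04). CycB, the B-type mitotic cyclin, had 1574, 1809 and 1725 CPM in WT and 3511, 4135 and 4162 CPM in CBP-KD, one of the 5 largest gains in CPM of all genes. Among 15 factors that clear or repress maternal RNA 2 were higher, cup (1.33) and smg. Without the fold threshold 13 of the 15 passed the adjusted p threshold in edgeR, all with an increase. Smaug (smg), which brings the CCR4-NOT deadenylase to maternal transcripts, had 1324, 1758 and 1557 CPM in WT and 3416, 3853 and 4148 CPM in CBP-KD (1.30 ± 0.09, SE), the largest gain in CPM of all. The deadenylase subunits twin (0.71), Pop2 (0.31) and Not1 (0.28) and the repressors brat (0.21) and pum (0.89) were not called.

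The same maternal RNAs were followed from before cycle 9 to cycle 14. In WT, osk went from 1615 ± 152 CPM before cycle 9 to 68.5 ± 4.09 CPM at cycle 14, and in CBP-KD from 1813 ± 38.6 to 318 ± 34.1 CPM (SD, n = 3). Before cycle 9, 0 of the 13 axis determinants and 0 of the 11 germ plasm RNAs were called between CBP-KD and WT, with medians of 0.15 and 0.13 (5 and 7 at an unadjusted p under 0.05 and any fold in edgeR). E(z)-KD was not tested against WT here. At cycle 14 its osk level was 315 ± 14.8 CPM, its bcd level 256 ± 7.99 CPM and its smg level 3672 ± 236 CPM (SD, n = 3). None of the axis determinants and none of the germ plasm RNAs differed between CBP-KD and E(z)-KD by the call rule (medians 0.02 and 0.14, with 5 and 6 at an unadjusted p under 0.05 in edgeR and 0 called by DESeq2). For osk, bcd and smg the mean was thus above that of WT in both maternal knockdowns.

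**Figure D4:**
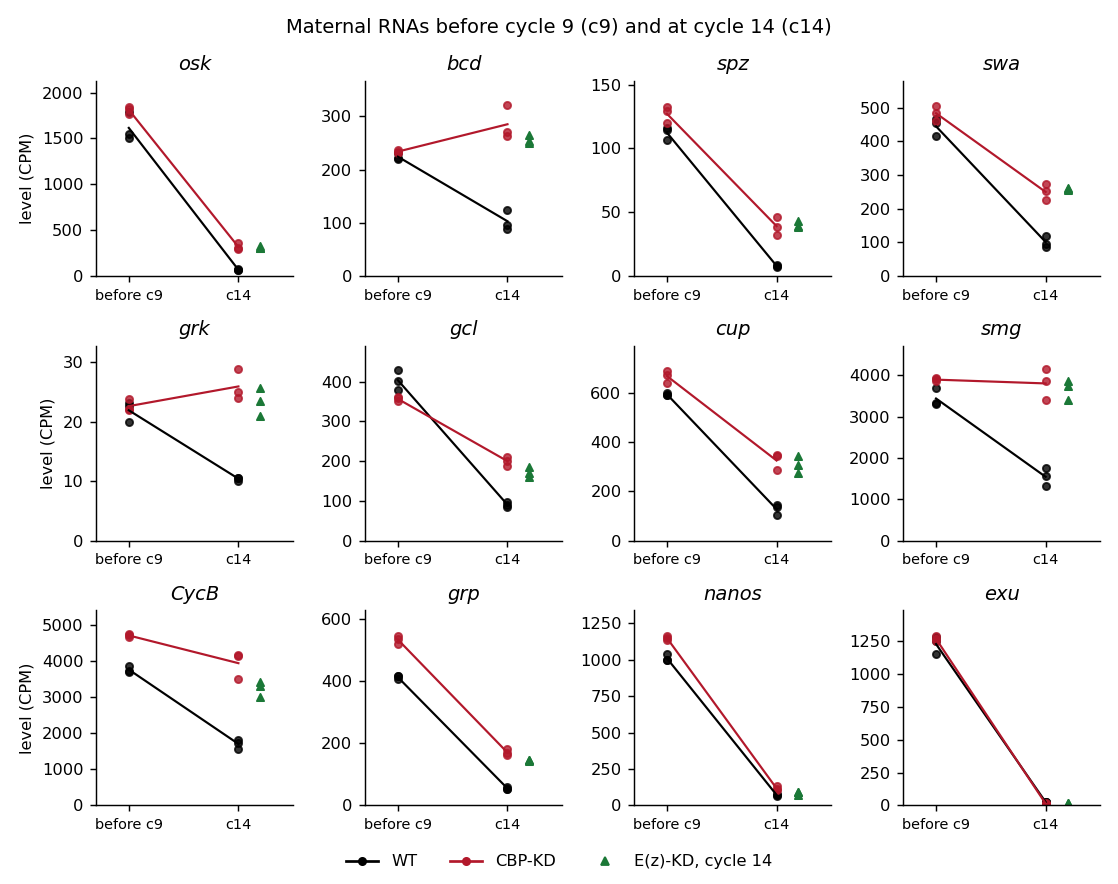
Level in CPM (y axis) of 12 maternal RNAs before cycle 9 and at cycle 14 in each library of WT (black) and CBP-KD (red), with lines between the group means, and in E(z)-KD at cycle 14 (green triangles). For osk, bcd, spz, swa, grk, gcl, cup, smg, CycB and grp WT and CBP-KD are closer in ratio before cycle 9 than at cycle 14, when both knockdowns lie above WT, while nanos and exu were not called.

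Over all genes, the level in WT before cycle 9 was used to separate RNAs that the mother supplied from those that appear later. These WT libraries take no part in the cycle 14 contrast. Of the 1747 tested genes with at most 1 CPM before cycle 9, 726 were lower in CBP-KD (41.6%) and 360 were higher (20.6%), with a median log2 fold change of -0.70. Of the 2557 genes above 100 CPM, 130 were lower (5.08%) and 302 were higher (11.8%), with a median of 0.16. The shares of lower and of higher genes were thus both largest among genes with at most 1 CPM early. Genes this low early pass the count filter largely through libraries of other groups, such as WT at cycle 14. Part of this excess may therefore come with the filter, which was not tested. Of the 726 lower genes with at most 1 CPM early, 349 (48.1%) kept under 10% of the WT level, and the median gene kept 10.8% (quartiles 4.83% and 23.2%).

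RNAs that WT embryos already held early made up a smaller share of the higher genes than of all genes tested. In all, 563 higher genes (55.4%) had more than 10 CPM in WT before cycle 9, against 5952 of all tested genes (70.3%), so 9.46% of the genes above that level were higher, against 12.0% of all genes tested. The 360 higher genes with at most 1 CPM in WT before cycle 9 were mostly at low levels, and 306 of them (85%) had under 5 CPM in CBP-KD at cycle 14.

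**Figure D5:**
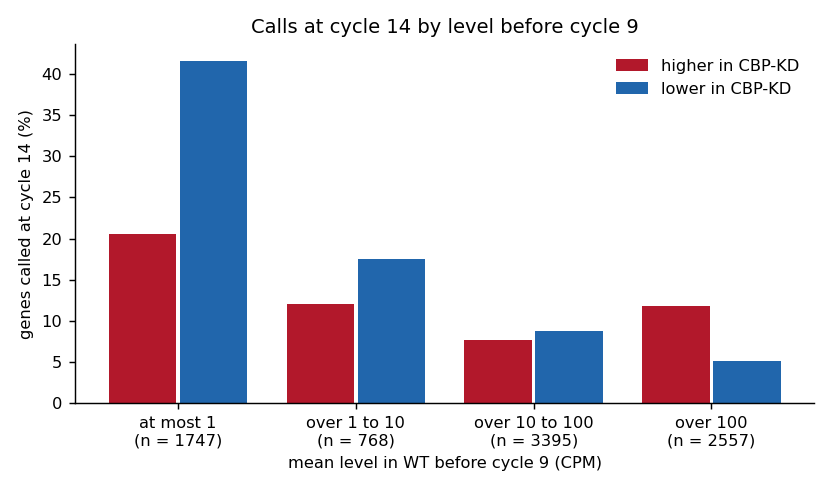
Share of tested genes called lower (blue) and higher (red) in CBP-KD at cycle 14 (y axis, percent) by their mean level in WT before cycle 9 (x axis, CPM, number of genes in brackets). The share called lower goes down from 41.6% of genes with at most 1 CPM to 5.08% of genes over 100 CPM, and the share called higher is 20.6% and 11.8% in the same classes.

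Most genes of the machinery of transcription and chromatin were not called, which also holds for 6164 of all 8467 genes tested. None of the 12 RNA polymerase II subunits and none of the 14 TFIID and TBP-family genes passed both thresholds (medians -0.14 and -0.09). At an unadjusted p under 0.05 and any fold, edgeR counted 7 of the 12 and 9 of the 14, and DESeq2 called 0 of either list. Of 29 Mediator subunits 3 were lower, MED30 (-1.74), MED17 (-1.66) and Cdk8 (-1.58). In the pause release and elongation list 2 of 17 genes were lower. Cyclin T (CycT), the cyclin of the pause release kinase P-TEFb, had 579.7, 597 and 603 CPM in WT and 214, 180.4 and 159 CPM in CBP-KD (-1.69 ± 0.07, SE), while its kinase Cdk9 was not called (-0.18). The other was Nelf-A (-1.35), a subunit of the pausing factor NELF, whose partners NELF-B (0.46) and Nelf-E (0.50) and the gene TH1 (-0.13) were not called. The bromodomain protein gene fs(1)h, a reader of histone acetylation, was near 0 (0.13).

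Among 12 histone acetyltransferase genes, nej and Atac2 (-1.40) were lower and mof and Hat1 (1.59) were higher. These are 16.7% each way, near the 15.2% lower and 12.0% higher of all genes tested. The other nuclear acetyltransferases Gcn5 (0.20), Tip60 (0.65) and enok (-0.07) were not called. Of 11 deacetylase genes only Sirt6 was lower (-1.24), and HDAC1 was near 0 (-0.06). Some Polycomb genes were among the lower genes, while 5 of 8 in PRC2 and 8 of 11 in PRC1 were not called. Over all genes tested 15.2% were lower. In PRC2, 3 of 8 were lower, Su(z)12 (-2.03), the methyltransferase E(z) (-1.66) and Pcl (-1.45). The E(z) level was 34.6, 31.9 and 32.8 CPM in WT, 14.9, 9.41 and 7.26 CPM in CBP-KD and 4.74 ± 1.08 CPM (SD, n = 3) in the E(z)-KD embryos. CBP-KD embryos therefore also had less E(z) RNA than WT, though more than the embryos in which E(z) was the target. In PRC1, 3 of 11 were lower, ph-p (-3.51), Pc (-1.39) and ph-d (-1.12). The ph-p level was 247, 254 and 275 CPM in WT and 29.9, 20.0 and 18.8 CPM in CBP-KD. Of 15 trithorax group and remodeller genes 1 was lower, trx (-1.20). Among the pioneer and insulator factors, zld (-0.33), Trl (-0.25) and Clamp (0.45) were not called, opa and grh (-2.62) were lower and CTCF was higher (1.37). Of 11 heterochromatin genes 1 was higher, G9a (1.10), and of 14 piRNA pathway genes 1 was lower, moon (-1.33). Among 13 histone variants and chaperones Hira was higher (1.46), and Caf1-105 (-2.06) and cid (-1.28) were lower (15.4%, near the share of all genes).

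Families of general cell function gave a reference for these counts. Of 83 cytoplasmic ribosomal protein genes tested 1 was lower and 0 were higher (median -0.25). Without the fold threshold 63 of the 83 passed the adjusted p threshold in edgeR, all with a decrease, so the family was not unchanged. Of 73 mitochondrial ribosomal protein genes 7 were lower and 0 were higher, with mRpL46 at -1.93 and mRpS34 at -1.87. Of 32 proteasome genes 1 was lower, Rpn11 (-1.10), and of 15 replication licensing genes 1 was lower, Orc2 (-1.42). The shares called in these families are below the 15.2% and 12.0% of all genes. In the glycolysis list the lactate dehydrogenase gene Ldh was lower (-2.79) and the hexokinase gene Hex-A higher (1.37). The tubulin gene betaTub60D, a zygotic isotype, was lower (-2.65), and the maternal gammaTub37C higher (1.04). Families added after their values were seen were alike. Of 33 aminoacyl-tRNA synthetase genes 1 was lower and 1 higher, of 38 translation initiation factor genes 3 were lower, of 21 nuclear pore genes 1 was lower, and of 10 chaperonin genes 0 were called by edgeR or DESeq2 (5 at an unadjusted p under 0.05 in edgeR).

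Nuclear receptors of the ecdysone response were not lower in any case. Of 10 genes, 4 were higher (median 0.99). Eip78C had 0, 0 and 0.0959 CPM in WT and 1.41, 0.728 and 0.847 CPM in CBP-KD, a ratio of 29.2 with a wide counting interval (5.0 to 1177, 95%). Its E(z)-KD level was 0.0815 ± 0.0874 CPM (SD, n = 3). Hr4, Hr3 and Eip75B were higher by 1.89, 1.65 and 1.48, and EcR (0.24) and usp (0.69), the receptor pair for ecdysone, were not called. Of 12 heat shock and chaperone genes 3 were higher, Hsp27 (1.91), DnaJ-1 (1.41) and Hsp26 (1.38), 1 was lower, Hsp70Aa (-2.09), and 8 were not called (median -0.15).

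Noncoding RNAs were counted apart from coding genes. Of 1984 long noncoding RNAs only 230 had enough counts to be tested. Of these 87 were lower (37.8%) and 28 were higher (12.2%, median -0.53). Among the 8093 protein-coding genes tested 14.6% were lower and 12.1% higher. Genes low early pass the count filter largely through other groups, such as WT at cycle 14. The part of the filter in this difference was not tested. Of 322 small nuclear and nucleolar RNAs 73 were tested, of which 3 were lower and 2 were higher (median -0.30). The 7SL RNAs, which belong to the signal recognition particle and exist in near-identical copies, had the largest CPM losses in absolute terms with slam, wech and Nrt, but they overlapped between groups and were not called. The 7SLRNA:CR42652 level was 56027, 36913 and 38741 CPM in WT and 39738, 25306 and 28964 CPM in CBP-KD. The adhesion protein gene Nrt had 2741, 2906 and 2958 CPM in WT and 593, 381 and 377 CPM in CBP-KD (-2.67 ± 0.14, SE), and wech, a muscle attachment gene, 6039, 6472 and 6858 CPM in WT and 2481, 1963 and 2059 CPM in CBP-KD (-1.57 ± 0.07, SE). Of 19 replication-dependent histone copies that were tested 2 were called, both higher. Reads of these copies can be split between near-identical genes, and their single values are uncertain.

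Position and gene structure were read for all genes tested. By chromosome, 14.0% of the 1463 tested X-linked genes were higher and 11.2% lower, with a median of 0.14. On the large autosome arms 10.4% to 13.2% were higher and 14.5% to 17.3% lower, with medians from -0.05 to 0.02. Of the 83 genes on chromosome 4, 7.23% were higher and 13.3% lower. Genes with 1 exon were lower in 21.7% of 1007 cases and higher in 10.7%, and genes over 20000 bp were lower in 24.7% of 738 cases and higher in 15.6%, against 15.2% lower and 12.0% higher over all genes.

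Among called genes that reached 5 CPM in WT and whose libraries did not overlap, the 12 largest decreases were CG13653, Nepl4, DIP-theta, Doc2, Ocho, lncRNA:iab4, Cys, Art2, Idgf3, CG43725, Hsp70Bbb and Blimp-1. CG13653 (chr3R:25195527-25196531, dm6) had 19.0, 13 and 14.0 CPM in WT and 0 counts in every CBP-KD library, which makes it at least 83.7-fold lower against the floor of 3 counts per library. Nepl4, a neprilysin-like peptidase gene, had 21.3, 22.4 and 28.6 CPM in WT and 0.0707, 0 and 0 CPM in CBP-KD. Art2, an arginine methyltransferase gene, had 21.5, 18.5 and 23.9 CPM and 0.0707, 0.0520 and 0.242 CPM. None of the 3 exceeded 0.242 CPM in any CBP-KD library. Ocho, a Bearded family gene, had 56.9, 38.6 and 43.4 CPM in WT and 0.283, 0.156 and 0.182 CPM in CBP-KD (-7.78 ± 0.66, SE). Cys, a cystatin-like protease inhibitor gene, had 158, 119.6 and 129 CPM in WT and 0.777, 0.988 and 0.303 CPM in CBP-KD (-7.58 ± 0.29, SE). Blimp-1, a zinc finger repressor with PRDM homology, had 219.5, 216 and 238 CPM in WT and 2.76, 1.61 and 1.03 CPM in CBP-KD (-7.0 ± 0.21, SE, adjusted p = 3.96e-11). CR44095 overlaps Cys on the opposite strand.

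In each of these genes the E(z)-KD mean at cycle 14 was also below that of WT. It was 25.9 against 135 CPM for Cys and 51.4 against 225 CPM for Blimp-1. All but DIP-theta and Hsp70Bbb were called lower in CBP-KD than in E(z)-KD. For 3 of these genes the E(z)-KD or early levels are given here. DIP-theta, a neuronal surface immunoglobulin gene, was at 13, 12.2 and 15.0 CPM in WT, at 0, 0.0520 and 0 CPM in CBP-KD and at 0 CPM on average in E(z)-KD. Hsp70Bbb, a copy of the heat shock gene, was at 7.59, 6.02 and 7.48 CPM in WT, 0.141, 0 and 0 CPM in CBP-KD and 0.101 CPM in E(z)-KD. Both were thus near 0 in both knockdowns. Idgf3, a growth factor of the chitinase family, was at 14.7, 14.1 and 15.0 CPM in WT and 0.141, 0 and 0.121 CPM in CBP-KD at cycle 14. Its E(z)-KD mean at cycle 14 was 1.10 CPM. Before cycle 9 it was already at 13 CPM in WT and 0.191 CPM in CBP-KD.

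Among called genes that reached 5 CPM in CBP-KD and whose libraries did not overlap, the 12 largest increases were CG30059, His3:CG33827, CG14131, DAT, GstE1, CG32373, CG3726, CG12592, Cyp4p2, CG44836, Hsp70Bb and Dh44-R2. Of the 12 increases named by size, 10 were also called higher before cycle 9. CG3726 (chrX:5917097-5941852, dm6) had 1.90, 1.03 and 1.15 CPM in WT and 79.1, 78.2 and 79.4 CPM in CBP-KD at cycle 14 (5.95 ± 0.14, SE), and 0.866 and 45.6 CPM before cycle 9. GstE1, a glutathione S-transferase gene, had 0.158, 0.661 and 0.288 CPM in WT and 68.2, 57.6 and 71.2 CPM in CBP-KD (7.24 ± 0.20, SE), and 0.116 and 42.2 CPM before cycle 9. CG14131 had 0 counts in every WT library and 12.6, 25.6 and 15.4 CPM in CBP-KD, at least 54.6-fold higher, and 0.938 and 274 CPM before cycle 9. CG30059 had 0 counts in every WT library and 29.8, 33.1 and 30.1 CPM in CBP-KD, at least 94.8-fold higher, and its counts were split with other genes in 12 of 18 libraries. The E(z)-KD level was also above WT for these genes, at 30.6 CPM for CG3726, 52.8 CPM for GstE1, 32.9 CPM for CG14131 and 19.3 CPM for CG30059. Genes on the opposite strand overlap GstE1, CG14131 and CG30059.

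Others of the 12 were low in CBP-KD before cycle 9 or low in E(z)-KD. DAT, the dopamine transporter gene, had 0 counts in every WT library and 12.1, 6.81 and 5.75 CPM in CBP-KD, at least 25.1-fold higher, with 0.311 CPM in CBP-KD before cycle 9 and 0.519 CPM in E(z)-KD. CG44836 had 0.158, 0.367 and 0.671 CPM in WT and 12.2, 10.3 and 14.9 CPM in CBP-KD (4.86 ± 0.67, SE), with 0.520 CPM in CBP-KD before cycle 9. Cyp4p2, a cytochrome P450 gene, had 0.632, 0.514 and 0.575 CPM in WT and 19.7, 22 and 20.8 CPM in CBP-KD (5.19 ± 0.32, SE), with 13.4 CPM in CBP-KD before cycle 9 and 0.0193 CPM in E(z)-KD.

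Families of detoxification enzymes, looked at because of these genes, moved both ways. Their shares are of the members with enough counts to be tested. Over all genes tested 12.0% were higher and 15.2% lower, and among the tested cytochrome P450 genes 20% and 31.4%. Of 82 cytochrome P450 genes 35 were tested, of which 7 were higher and 11 were lower. They ran from -7.88 for Cyp28d1 to 7.50 for Cyp4p3 among those without a near-identical copy. Of 35 glutathione S-transferase genes 24 were tested, of which 6 were higher (25%) and 3 lower (12.5%, near the share of all genes). Of 35 UDP-glycosyltransferase genes 9 were tested, of which 3 were higher (33.3%) and 2 lower (22.2%). Of 5 Hsp70 copies that were tested, Hsp70Bb was higher (4.78) and Hsp70Bbb and Hsp70Aa were lower (-7.16 and -2.09). Their reads are shared between near-identical copies, so which copy carried them is uncertain. Of 48 genes of the beat, dpr and DIP immunoglobulin families 15 were tested, of which 7 were lower (46.7%) and 1 was higher (6.67%). Of 3 strain markers looked at, the body colour gene yellow was at 1.42, 2.20 and 1.82 CPM in WT and at 5.94, 11.2 and 11 CPM in CBP-KD. In E(z)-KD it was at 149 ± 11.1 CPM (SD, n = 3). The eye colour gene w overlapped between WT and CBP-KD (means 0.730 and 1.17 CPM) and was not called (0.71). The gene v had too few counts to be tested. The genotypes therefore differed at 1 of the 3 genes used to mark stocks, and the part of the stock background in the results was not tested.

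Markers of other tissues and stages were read as a check of the samples. None of the 17 follicle cell and eggshell genes had enough counts to be tested, and their summed level was 0.808 to 1.73 CPM in WT and 2.84 to 3.25 CPM in CBP-KD. Of 10 muscle genes 3 were tested, with sums of 9.18 to 14.1 CPM in WT and 6.05 to 9.05 CPM in CBP-KD. Of 12 epidermis and cuticle genes 3 were tested, with sums of 7.11 to 8.08 CPM in WT and 14.6 to 15.8 CPM in CBP-KD, and yellow belongs to this list. Of 10 neuron and glia genes 4 were tested, of which 2 were higher (moody, 1.20, and nSyb, 1.06) and 1 was lower (elav, -2.57), with a median of 0.68. Their sum was 119 to 140.2 CPM in WT and 19.1 to 37.3 CPM in CBP-KD, of which elav made up 126 and 21.3 CPM on average. Of 10 haemocyte and fat body genes 5 were tested, of which 3 were lower, srp (-4.30), Fbp1 (-4.19) and gcm (-3.59), and 0 were higher. Their sum was 128 to 132 CPM in WT and 32.3 to 44.9 CPM in CBP-KD, of which srp, which the blastoderm embryo expresses itself, made up 104 and 5.36 CPM on average. The part of such cells in the results was not tested.

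The difference from E(z)-KD embryos of the same cycle was tested directly, to show which of these changes another maternal knockdown does not share. CBP-KD had 459 genes higher than E(z)-KD (5.42%) and 848 lower (10%), or 1307 in all (15.4%). This contrast uses the same CBP-KD libraries as the comparison with WT. By level, 623 of the 1747 genes with at most 1 CPM in WT before cycle 9 were lower than in E(z)-KD (35.7%), against 34 of the 2557 genes above 100 CPM (1.33%). Of the 52 germ layer markers 31 were lower than in E(z)-KD, 1 was higher and 20 were not called. All 9 pair-rule genes, the 8 tested of 10 Hox cluster genes and the 8 tested of 15 E(spl) and Bearded genes were lower than in E(z)-KD too. The medians were -2.23, -3.54 and -2.32. These lists summed to under 1 CPM in WT before cycle 9, so their members pass the count filter largely through cycle 14 libraries. The eve level in E(z)-KD was 46.2, 61.5 and 51.3 CPM, below every WT library and above every CBP-KD library. For Ubx it was 1.69, 0.927 and 2.20 CPM and for Doc2 7.77, 5.44 and 7.58 CPM, again between the other groups. At these genes CBP-KD was therefore lower than E(z)-KD, whose level was itself below that of WT. In the Notch pathway, dosage compensation, Mediator and mitochondrial ribosomal lists 0 genes were called against E(z)-KD in either direction. This test thus does not separate their changes from the other knockdown. Of the PRC2 genes 2 were higher than in E(z)-KD, E(z) among them, and 0 were lower. Of the PRC1 genes 0 were higher and 1 was lower.

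Before cycle 9, when the genome is mostly silent, CBP-KD differed from WT at fewer genes. There 636 genes were higher (7.51%) and 2.42% were lower, or 841 called in all (9.93%). The libraries of the 2 stages are separate. Of the 1016 genes higher at cycle 14, 235 were already higher before cycle 9 (23.1%, and 36.9% of the 636). Of the 1287 genes lower at cycle 14, 118 were already lower (9.17%, and 57.6% of those lower before cycle 9). Most decreases at cycle 14 were thus not called at the earlier stage. However, 726 of the 1287 genes had at most 1 CPM in WT before cycle 9. At such levels a 2-fold decrease can hardly be called, so the small overlap does not show when these differences began. A further 221 genes were higher before cycle 9 and lower at cycle 14 (34.7% of the 636 and 17.2% of the 1287). Their median level before cycle 9 was 0.776 CPM in CBP-KD and 0.0204 CPM in WT, and at cycle 14 it was 5.91 CPM in CBP-KD and 54.1 CPM in WT. CBP-KD replicate 3 was the highest of the early CBP-KD libraries for 176 of the 221.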

How the data were processed

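The authors deposited estimated counts (expected counts) for every gene of every library, neither normalized nor pooled over replicates. The authors mapped strand-specific, ribosomal RNA-depleted reads to dm6 with STAR in two-pass mode and kept reads with many positions, with STAR set to write gene counts and alignments to transcripts. STAR gene counts are whole numbers and some deposited values are not, so the program behind the deposited values is not clear. The annotation is not given in the sources used here, nor whether counting used the strand. The labels call the molecule nuclear RNA and the methods describe whole embryos. Since 2.9% of the values are off a whole number by over 0.01, counts were rounded, although the test design had assumed whole counts. Spike-in rows were not used here, and no column was without a sample.

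Counts were tested with edgeR 4.0.16 (R 4.3.3, limma 3.58.1): TMM factors, a filterByExpr filter, and a quasi-likelihood model of 18 libraries in 6 groups (12 residual degrees of freedom, common biological coefficient of variation 0.1151). Adjusted p-values are Benjamini-Hochberg values over all 8467 genes tested, and a call needs a value under 0.05 and a 2-fold difference. Standard errors are the size of the log2 fold change over the square root of its F statistic. For genes with all libraries of a group at 0, folds were set against a floor of 3 counts per library. Intervals (95%) and floors cover counting error only. Whether replicates were separate egg collections is not stated beyond the word biological, so p-values measure the spread between these libraries. Gene names were matched to Ensembl release 115 (BDGP6.54, the coordinates of dm6). Of 16680 names 12504 were current symbols, 4058 were older names and 118 were not matched. The fit was tested on simulated counts. Figures were drawn with Python 3.11.15 and matplotlib 3.10.9.

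Named genes followed a rule: nej, up to 4 members of each list with the largest changes among those reaching 5 CPM in the higher group, the 12 largest increases and decreases over all genes, and the 5 largest in CPM each way. Other members named in the text, and the families of detoxification enzymes, Hsp70 copies, immunoglobulin genes, translation and pore genes and yellow, were chosen after their values were seen. The lists and the comparison were chosen with earlier results of these data known. Alternatives were DESeq2 1.42.0, no TMM factors, other count filters, thinned counts, a fit of the 2 groups alone, calls without the fold threshold or tested against it, a replicate block and each library left out.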

Additional observations from a re-analysis of the deposited data

Results flagged for a closer look

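For 11 gap and pair-rule genes the effect of CBP-KD differed between the stages by a test of the difference itself, edgeR's interaction of stage and knockdown. All were called lower in CBP-KD at cycle 14 and higher than WT before cycle 9, so they are members with opposite calls. The test uses the same libraries as those calls, so its outcome was all but fixed and adds no support to them. Of the 228 genes called in opposite directions at the 2 stages, 228 passed it at an adjusted p under 0.05. The cycle 14 log2 fold change minus that before cycle 9 was -7.96 for Kr, -8.85 for kni, -8.15 for knrl, -3.81 for gt, -7.79 for tll, -7.58 for hkb, -7.54 for eve, -11.3 for h (hairy), -10.8 for odd, -9.56 for prd and -5.75 for slp1. The early levels behind these values are small. For Kr the mean before cycle 9 was 0.0613 CPM in WT and 1.32 CPM in CBP-KD, for eve 0.0204 and 0.743 CPM, and for odd 0 and 0.687 CPM. Several of the WT libraries held 0 counts, so the fitted sizes depend on the prior count and are no bounds. CBP-KD before cycle 9 replicate 3 was the highest early CBP-KD library for most genes of this kind (176 of the 221 higher before cycle 9 and lower at cycle 14).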

How the results depend on the processing

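The nej decrease kept its direction and call under every alternative, between -1.66 and -1.93. The counts moved most with the filters and thresholds. With at least 10 counts required in every library, which removes genes absent before cycle 9 by construction, 486 genes were higher and 535 lower than WT, and 46 higher and 178 lower than E(z)-KD. Without a fold threshold these counts were 2996, 2689, 1608 and 1883. Tested against a log2 fold change of 1, they were 633, 923, 207 and 557. Without a filter beyond 1 count 740 genes were higher than E(z)-KD, and with counts thinned to the smallest library 277 were. Leaving out each library in turn gave 977 to 1079 genes higher and 1223 to 1438 lower than WT, and 391 to 518 higher and 804 to 920 lower than E(z)-KD. The highest count of lower genes, 1438, was reached without CBP-KD replicate 1.

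DESeq2 called 789 genes higher and 1477 lower than WT (34.8% of calls higher, against 44.1%), and 442 higher and 826 lower than E(z)-KD. Same-numbered libraries did not deviate together (r = 0.155, 0.034 and -0.015 for CBP-KD and WT), so the numbers were not taken as pairs. With a replicate block 1002 genes were higher and 1285 lower than WT, and 439 and 834 than E(z)-KD. Over 14546 values of single genes under the alternatives, 13888 kept their status, whether called or not called. A call was lost in 151, gained in 507 and reversed in 0. The 13888 include genes called in neither fit. The counts of list members were less stable, and 314 of 2496 moved by more than 1.5 times or to or from 0, 74 of 156 without a fold threshold, 65 with at least 10 counts in every library and 18 with DESeq2.

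The shallowest library, WT replicate 1, limits the low levels: differences under its floor of 0.474 CPM were not detectable there. With 3 libraries per group, exact tests of single values cannot go below p = 0.1.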
